A study of Homo sapiens with 9 samples.

Results

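The 38 genes described here encode factors that start protein synthesis or carry it through elongation. They were listed by name, and for each one the TIF-Seq2 read pairs were summed whose 5′ and 3′ ends both lay on the gene's strand within 1 kb of its body in the Gencode v44 annotation of hg38. TIF-Seq2 reads the transcription start site (TSS) and the poly(A) site (PAS) of one capped and polyadenylated RNA molecule, and each deposited count is a number of such molecules after removal of PCR duplicates by molecular identifier. The samples were K562 cells, an established human line from a chronic myeloid leukaemia that depends on the BCR-ABL kinase, exposed for 24 h to 1 μM imatinib, an inhibitor of that kinase, or to the DMSO vehicle. Each condition had 2 libraries. The labels number them as replicates and no source used here ties a number to a shared culture day, so p-values measure the spread between these libraries.

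All 38 genes were detected, of 22384 annotated genes with at least 1 read pair. They held 271570 read pairs, or 1.77% of the 4 libraries, and 1.84% and 1.77% of the DMSO libraries against 1.73% and 1.73% of the imatinib libraries. Library depth ran from 2263121 pairs in imatinib 2 to 5135829 in DMSO 2. Of the K562 markers, the globin genes HBG2, HBE1 and HBZ had 968 to 4078 CPM (read pairs in a library scaled to 1000000) in the DMSO libraries, HBG1 and ALAS2 had 20.6 to 30.6 CPM there, and BCR had 35 pairs in all. These 5 globin and haem genes were called higher after imatinib, while the T cell gene CD3E and the B cell gene MS4A1 had 0 pairs and EPCAM, an epithelial marker, had 1853. The annotated body of HBG2 spans nearly all of HBE1, so pairs of HBE1 were also counted for HBG2 and the levels are not separate. Fewer expressing cells and less RNA per cell cannot be told apart in such bulk libraries.

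Initiation in human cells begins when the eIF4F complex (the cap-binding protein eIF4E, the scaffold eIF4G and the RNA helicase eIF4A) recruits the small ribosomal subunit to the capped end of an mRNA, with the large multisubunit factor eIF3 as a bridge. The subunit carries the initiator tRNA on eIF2, a GTP-binding protein recharged by the exchange factor eIF2B, and eIF5B joins the large subunit once a start codon is found. Elongation then rests on eEF1A, which delivers aminoacyl-tRNAs, its exchange factor eEF1B, the translocase eEF2, and eIF5A, which helps ribosomes through difficult peptide bonds. Many of these factors are themselves made from TOP mRNAs, which start with a C followed by a run of pyrimidines (the terminal oligopyrimidine motif) and whose translation is set by mTORC1 through LARP1.

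The start sites that carry most of what follows are shown first, because a TOP mRNA is defined by its first bases and TIF-Seq2 reads those bases directly. Each line gives 30 bases of the genome sequence on the gene's strand. The first 10 lie before the start site, and the capitals mark the first transcribed base and any pyrimidine run that it opens.
EIF3D, C start at chr22:36529166, 5′ untranslated region (UTR) of exon 1, minus strand: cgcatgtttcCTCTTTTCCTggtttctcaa
EIF3D, A start at chr22:36529173, upstream of the canonical transcript, minus strand: ctgcgcgcgcAtgtttcctcttttcctggt
EEF1G, C start at chr11:62573863, 5′ UTR, minus strand: gaaccccaccCCCTTTCTTTgcggaatcac
EEF1G, A start at chr11:62573891, 5′ UTR, minus strand: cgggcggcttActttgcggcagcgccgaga
EIF6, C start at chr20:35284782, upstream of the canonical transcript, minus strand: aaacggaaacCTTTTTagggagtccaaggt
EIF6, A start at chr20:35284762, 5′ UTR, minus strand: agtccaaggtAcagtcgccgcgtgcggagc
EIF4A2, C start at chr3:186783577, 5′ UTR, plus strand: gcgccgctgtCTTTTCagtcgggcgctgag
EIF4B, C start at chr12:53006456, 5′ UTR, plus strand: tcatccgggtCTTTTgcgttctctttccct
EEF1A1, C start at chr6:73521032, 5′ UTR, minus strand: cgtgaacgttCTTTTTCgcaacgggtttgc
EEF2, C start at chr19:3985463, 5′ UTR, minus strand: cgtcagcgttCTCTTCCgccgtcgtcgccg
EIF1, C start at chr17:41688887, 5′ UTR, plus strand: gcccctctgcCCCagtcactgagccgccgc
EIF4A1, C start at chr17:7572826, 5′ UTR, plus strand: gcactccgccCTagtttctaaggatcatgt
The last pair of entries open with a C but their pyrimidine runs are short, so they are not TOP starts by the rule used here, a C followed by at least 4 pyrimidines.

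Whether imatinib changed the amounts of these RNAs was asked first. Of the 38 genes, 2 were called lower and 0 higher at an adjusted p under 0.05 in edgeR's quasi-likelihood fit over 12135 genes, in which 6.15% of all genes were called lower and 8.69% higher. DESeq2 called 4 of the 38, and 11 had an unadjusted p under 0.05. In 18 genes both imatinib libraries lay below both DMSO libraries and in 6 they lay above, against 29.1% and 31.0% of all genes tested. The median log2 fold change of the 38 was -0.23, with 0.03 for all genes tested.

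EIF4G2 encodes a relative of eIF4G that lacks the part that binds eIF4E and serves cap-independent initiation. It had 58.6 and 80.4 CPM in the DMSO libraries and 25.2 and 19.1 CPM after imatinib. The groups did not overlap, and the log2 fold change was -1.64 (SE 0.32, adjusted p = 0.0122, edgeR). Without DMSO 2 the value was -1.41 and the adjusted p 0.0651, in a fit with 1 DMSO library that is assumed to vary like the imatinib libraries. EIF4G2 lies at chr11:10797050-10808940.

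EIF3B, at chr7:2354086-2380745, encodes a core subunit around which eIF3 is assembled. Its levels were 98.2 and 104 CPM in DMSO and 59.0 and 41.3 CPM after imatinib, a log2 fold change of -1.0 (SE 0.29, adjusted p = 0.0495, edgeR). The imatinib libraries lay below the DMSO libraries, but the call stood at the threshold. Only 28.2% and 29.3% of EIF3B pairs in DMSO and 24.7% and 32.3% after imatinib began within 100 bp of an annotated start. The adjusted p was 0.171 without DMSO 1 and 0.254 without DMSO 2.

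**Figure D1:**
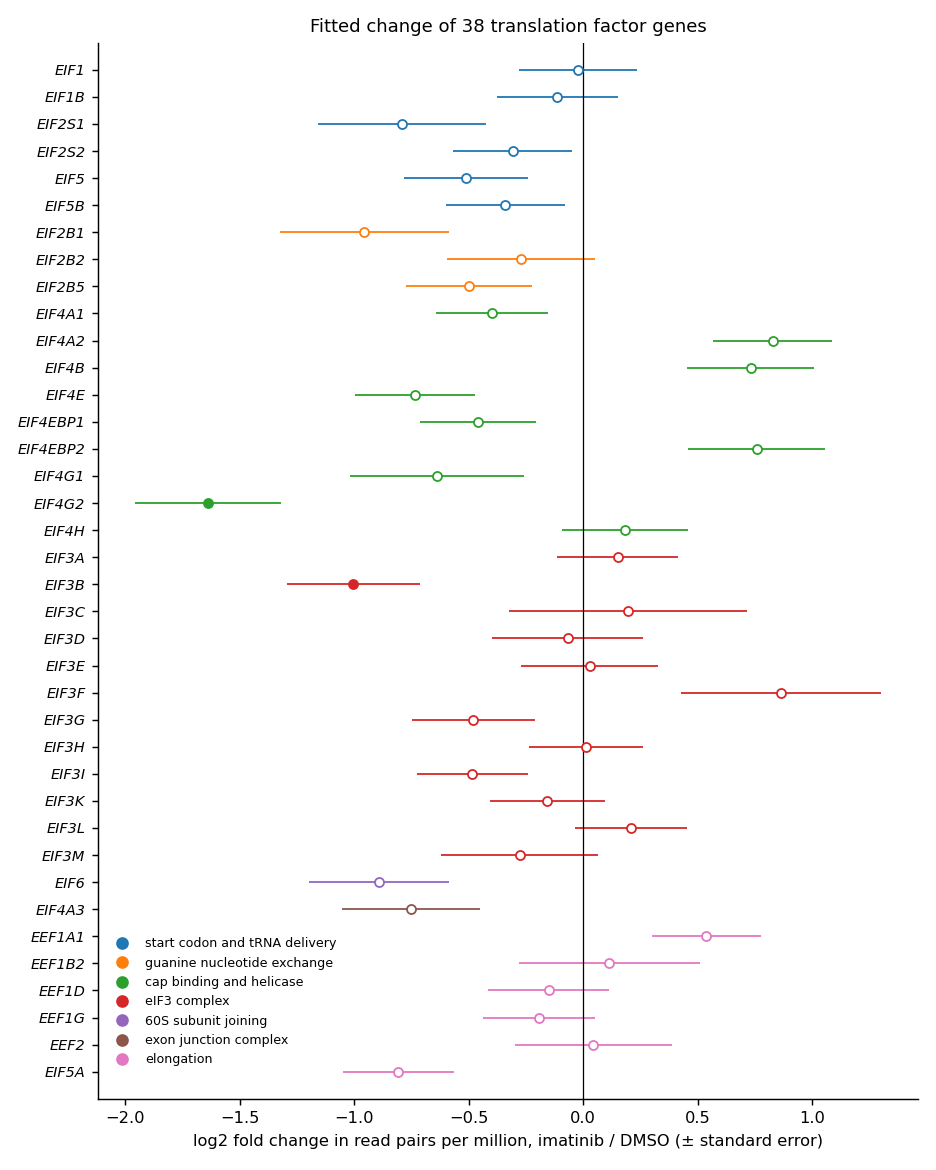
Fitted log2 fold change in CPM (imatinib over DMSO, x axis) with its standard error for each of the 38 genes (y axis), coloured by role, from 2 libraries per condition. Filled points passed the test: EIF4G2 at -1.64 and EIF3B at -1.0; the open points run from -0.95 to 0.86.

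The other cap-binding and helicase genes did not move one way. EIF4A2, one of the paralogous eIF4A helicases, had 206 and 188 CPM in DMSO and 303 and 396 CPM after imatinib (log2 fold change 0.83, adjusted p = 0.0631). EIF4A1, its close paralog, had 2003 and 1864 CPM in DMSO and 1326 and 1608 CPM after imatinib (-0.40, adjusted p = 0.30). Neither passed the test, and the 2 genes had opposite signs with no overlap between conditions in either. EIF4A2 was called when pairs with A-followed ends (7 or more A in the next 10 genomic bases) were left out (0.92, adjusted p = 0.0436, edgeR), while EIF3B was then not (adjusted p = 0.0558). EIF4B, a cofactor of the helicase, had 140 and 132 CPM and then 185 and 267 CPM (0.73, adjusted p = 0.11). EIF4E had 482 and 410 CPM and then 233 and 303 CPM (-0.73, adjusted p = 0.0927). The eIF4E-binding inhibitors also had opposite signs, with EIF4EBP1 at -0.46 and EIF4EBP2 at 0.76 on the log2 scale. EIF4G1, the main scaffold, was at -0.64 and EIF4H, a second helicase cofactor, at 0.18. Every pair assigned to EIF4A1 also fitted the annotated read-through gene SENP3-EIF4A1, and the counts cannot separate the 2.

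Of the 12 eIF3 subunit genes, EIF3B was the only one called, and in 7 the conditions overlapped. EIF3K, a subunit at the edge of the complex, had 1804 and 1459 CPM in DMSO and 1344 and 1582 CPM after imatinib (log2 fold change -0.16, SE 0.25, adjusted p = 0.715). EIF3G and EIF3I, partners of EIF3B in the same part of eIF3, were both at -0.48 with imatinib below DMSO. EIF3C had 41 pairs and EIF3F 124. EIF3C has a near-identical neighbour, EIF3CL, and since only uniquely mapped reads were kept, its count is uncertain and is not read as a level.

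The factors around the start codon and the initiator tRNA lay at or below the DMSO level. EIF1, which guards start codon choice, had 989 and 813 CPM in DMSO and 990 and 783 CPM after imatinib (-0.02, SE 0.26, adjusted p = 0.964), the closest to no difference among the 5 genes with most pairs. EIF5B had 2751 and 2315 CPM and then 2277 and 1727 CPM (-0.34, SE 0.26, adjusted p = 0.407). EIF2S1 and EIF2S2, the alpha and beta subunits of eIF2, were at -0.79 and -0.31. EIF2B1, EIF2B2 and EIF2B5, subunits of the exchange factor, were at -0.95, -0.27 and -0.50. None of these passed the test. EIF6, which keeps the ribosomal subunits apart, had 481 and 600 CPM in DMSO and 364 and 218 CPM after imatinib (-0.89, adjusted p = 0.0829), with a call in DESeq2 (adjusted p = 0.0416) and in edgeR with no filter on low counts (adjusted p = 0.00814). EIF4A3, a relative of eIF4A that works in the exon junction complex rather than in initiation, was at -0.75 (adjusted p = 0.127).

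Among the elongation factors, EEF1A1 had 1907 and 2044 CPM in DMSO and 2942 and 2792 CPM after imatinib. The imatinib libraries lay above both DMSO libraries, at a log2 fold change of 0.54 (SE 0.24) that did not pass adjustment (adjusted p = 0.16, edgeR). EIF5A had 713 and 665 CPM in DMSO and 422 and 365 CPM after imatinib (-0.81, SE 0.24, adjusted p = 0.0565), with a call in DESeq2 (adjusted p = 0.0274). EEF2 and the eEF1B subunit genes EEF1B2, EEF1D and EEF1G lay between -0.19 and 0.11. The 10 members on the list of classical TOP mRNAs had a median log2 fold change of 0.08, with imatinib above DMSO in 3 and below in 1. The 28 other members had a median of -0.43, with imatinib above in 3 and below in 17. Over all genes tested, imatinib lay above in 31.0% and below in 29.1%. The difference between these lists was not tested.

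The members' partners and regulators were taken from a list of 44 further pathway genes, of which 42 could be tested. Of these, 2 were called higher and 6 lower, against 8.69% and 6.15% of all genes tested. PDCD4, an inhibitor that binds the eIF4A helicase, rose from 40.7 and 33.8 CPM to 188 and 163 CPM (log2 fold change 2.24, SE 0.28, adjusted p = 0.00289). EIF2AK1, the haem-regulated kinase of eIF2 alpha, rose from 88.4 and 88.1 CPM to 149 and 186 CPM (0.92, adjusted p = 0.0471). DOHH, which completes the hypusine residue on eIF5A, fell from 11.6 and 10.6 CPM to 1.99 and 1.78 CPM (-2.51, SE 0.43, adjusted p = 0.00785). It rested on 108 pairs in all. The other genes called lower were EEF2KMT, a lysine methyltransferase of eEF2 (-1.44), TSFM, a mitochondrial elongation factor (-1.21), ABCE1, which splits ribosomes after termination (-1.08), GSPT1, the release factor eRF3a (-1.05), and EIF2B3, a further eIF2B subunit (-0.94). The median of the 42 was -0.08. Without DMSO 2 the adjusted p was 0.327 for EIF2AK1, 0.0664 for EEF2KMT, 0.159 for TSFM, 0.235 for ABCE1, 0.253 for GSPT1 and 0.196 for EIF2B3. Without DMSO 1 it was 0.303 for EIF2AK1, 0.0611 for TSFM, 0.0922 for ABCE1, 0.103 for GSPT1 and 0.257 for EIF2B3. Without imatinib 1 it was 0.0604 for ABCE1, and without imatinib 2 it was 0.0523 for EIF2AK1. DESeq2 gave EIF2AK1 an adjusted p of 0.0553. PDCD4 and DOHH passed the test in each of these fits.

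Start site choice was then compared. Start positions were joined into clusters when at most 10 bp apart, and a cluster was kept as a site when it held at least 5% of the gene's clustered pairs. The members had 56 such sites, and 55 lay within 200 bp of an annotated transcript start. Of the members, 21 used 1 site, 3 (EIF3B, EIF3C and EIF4G1) had none, and 14 had several and could be tested. In the edgeR test of site usage 2 of the 14 were called, EIF3K and EIF3G, against 4.85% of the 3526 genes tested. Of the 14, 5 had an unadjusted p under 0.05.

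EIF3K, at chr19:38619082-38636955, had a main cluster with its most used position at 38619196 and a second one 134 bp upstream at 38619062, before the annotated start of the canonical transcript.
EIF3K, upstream start at chr19:38619062, plus strand: cgcacgcgccAattgcgcctgcgaggaaga
EIF3K, main start at chr19:38619196, 5′ UTR, plus strand: acctcttcctGttcccgtccttgaggacgc
The upstream cluster held 8.46% and 9.74% of the gene's clustered pairs in DMSO and 2.88% and 2.52% after imatinib. The 95% Wilson intervals, which cover counting error only, were 7.78 to 9.19% in DMSO 1 and 2.48 to 3.34% in imatinib 1. Use of the upstream start fell (adjusted p = 0.00554), while the gene's total did not pass the test. The adjusted p was 0.167 without DMSO 1 and 0.223 without DMSO 2.

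EIF3G, at chr19:10115014-10119918, had clusters 31 bp apart.
EIF3G, upstream start at chr19:10119906, minus strand: tttcgcccgcTTCCgctctctggccgggct
EIF3G, downstream start at chr19:10119875, 5′ UTR, minus strand: gggctgcgtgGagaatactttttgcgatgc
The downstream cluster held 36.3% and 37.5% of the clustered pairs in DMSO and 16.1% and 16.2% after imatinib, and the rest lay in the upstream cluster. The mean was 36.9% ± 0.88 in DMSO and 16.1% ± 0.06 in imatinib (SD, n = 2 each), so the conditions differed by more than the libraries of a condition (adjusted p = 0.0352, edgeR). With 1 library left out the adjusted p did not pass, at 0.309 without DMSO 1, 0.384 without DMSO 2, 0.134 without imatinib 1 and 0.0529 without imatinib 2.

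The 3 further members with an unadjusted p under 0.05 in this edgeR test were not called. In each, a cluster had shares that did not overlap between conditions. Such clusters were also found in members with a higher p, such as EEF1B2 (main cluster 51.5% and 52.7% in DMSO, 62.2% and 64.4% after imatinib). Their frequency over all genes was not counted. In EIF3D, which can itself bind the cap, the most downstream cluster at 36529118 held 12.2% and 11.3% of pairs in DMSO and 3.40% and 5.37% after imatinib (adjusted p = 0.192). In EIF6 the downstream cluster at 35284737 held 14.4% and 16.2% and then 5.62% and 8.80% (adjusted p = 0.0909). In EIF1B, a paralog of EIF1, a start at 40309803 held 22.8% and 24.6% and then 10.9% and 12.0% (adjusted p = 0.0803).

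Single-base positions were looked at next, since a TOP start differs from its neighbours by 1 or a few bases. In EIF3D the C start at 36529166 took 12.3% and 11.9% of all the gene's pairs in DMSO and 27.3% and 26.4% after imatinib. The A start 7 bp upstream took 12.8% and 11.6% in DMSO and 13.6% and 12.1% after imatinib. The pyrimidine start thus held the larger share in both imatinib libraries, while both starts had similar shares in DMSO. In EEF1G the C start at 62573863 took 28.3% and 21.1% and then 32.1% and 40.4%, and the A start at 62573891 took 7.90% and 9.66% and then 4.41% and 3.28%. In EIF6 the C start at 35284782 took 3.42% and 3.75% and then 11.7% and 11.4%, and the A start 20 bp downstream took 13.1% and 13.3% and then 7.0% and 10.6%. In both genes the C start held a larger share and the A start a smaller share in every imatinib library.

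**Figure D2:**
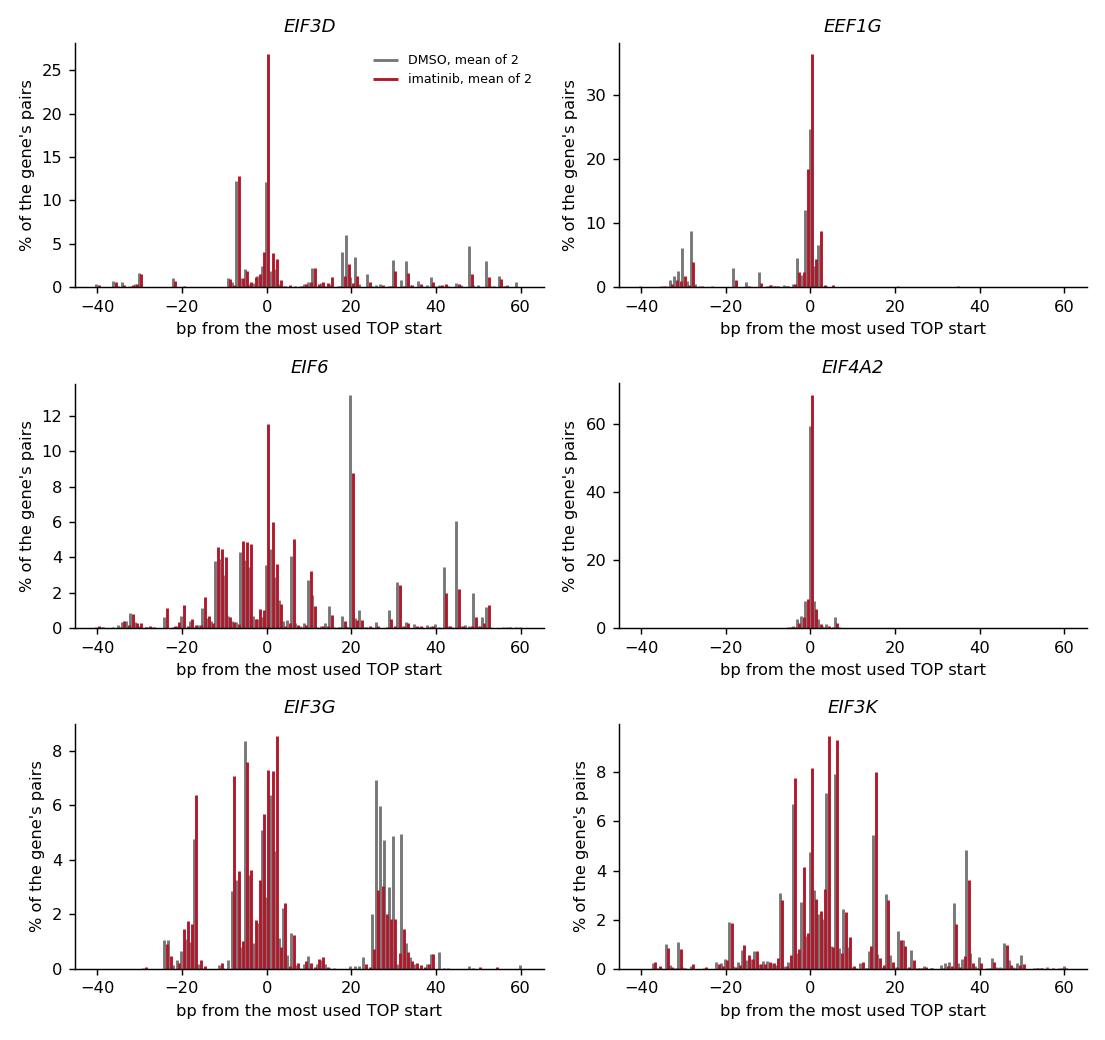
Share of the gene's read pairs that start at each base (y axis, percent, mean of 2 libraries per condition) against the distance in bp from the gene's most used TOP start, positive downstream (x axis), for 6 members. In EIF3D the peak at 0 rises from 12.3% and 11.9% in the DMSO libraries to 27.3% and 26.4% in the imatinib libraries while the peak 7 bp upstream does not, and in EIF3G the downstream group of starts is lower in imatinib.

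Summed over each gene, the share of pairs with a TOP start could be modelled in 22 members. The model, an edgeR fit of TOP and other pairs with a term for each library, was chosen after the shares had been seen. TOP and other pairs each had to hold at least 5% of the gene's pairs over the 4 libraries, and at least 20 pairs. EIF6 and EIF3G, with mean TOP shares of 4.38% and 4.66% in DMSO, met this limit only through the imatinib libraries. Their calls are thus not independent of the limit, which also applied to all other genes. Of the 22, 18 were called higher after imatinib and 0 lower, and in 19 both imatinib libraries lay above both DMSO libraries. The same held widely in the transcriptome, where 39.4% of 1664 genes were called higher, 63.9% had both imatinib libraries above, and the median log2 odds ratio was 0.61 against 0.76 in the members. Over all read pairs of a library the TOP share was 7.88% and 7.67% in DMSO and 10.6% and 11.9% in imatinib, so the shift was general. Over the members' pairs it was 12.0% and 11.2% in DMSO and 16.6% and 20.1% after imatinib. An exact permutation test of 2 against 2 libraries cannot go below p = 0.33, and the model takes its spread from all genes, so a difference that touches all genes of a library enters every call. A test of TOP and other pairs as 2 features of a gene called 14 of the 1664 genes and 0 of the 22 members.

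The first bases shifted in the same direction in members and in the whole libraries. A C was the first base of 30.6% and 30.1% of the members' pairs in DMSO and of 38.5% and 40.2% after imatinib, and an A of 31.5% and 31.7% and then 26.4% and 25.7%. In all pairs a C start was found in 20.9% and 20.9% and then in 26.6% and 26.2%.

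Of the 12 eIF3 subunit genes, 10 could be modelled and 9 of these were called higher in TOP share, against the 39.4% of all genes given above. The test of 2 features called 0 of the 10. Calls also depend on the number of pairs, for which the genes were not matched. The log2 odds ratio was above 0 in 95.5% of the modelled members and in 86.3% of all genes modelled. EIF3E, a subunit of the module that dissociates readily from the rest, went from 34.9% and 37.7% to 60.7% and 57.3% (log2 odds ratio 1.34, SE 0.17, adjusted p = 3.88e-13, edgeR). EIF3D went from 17.9% and 16.6% to 37.1% and 31.7% (1.33, SE 0.19). EIF3M, EIF3K, EIF3G, EIF3I, EIF3H, EIF3L and EIF3A were also called, at log2 odds ratios from 0.40 in EIF3L to 1.02 in EIF3G. Of these, EIF3G met the limit for modelling only through the imatinib libraries. EIF3F, with few pairs, had 31.6% and 28.6% and then 48.6% and 40.0% and was not called (adjusted p = 0.218).

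Among the elongation factors, the TOP share was called higher in EEF1G, EEF1B2 and EEF1D and overlapped between conditions in EEF1A1 and EEF2, while EIF5A, with shares of 0 to 0.89%, could not be modelled. EEF1G went from 54.4% and 46.6% to 68.9% and 75.4% (log2 odds ratio 1.33, SE 0.19, adjusted p = 5.27e-11). EEF1B2 went from 28.7% and 30.8% to 42.4% and 41.3%, and EEF1D from 30.5% and 34.0% to 41.7% and 46.8%. All pairs of EEF1G also fitted the overlapping gene ENSG00000255508. In EEF1A1 the share was 18.6% and 13.3% in DMSO and 12.9% and 17.9% after imatinib (-0.06, SE 0.13), and in EEF2 it was 37.7% and 34.1% and then 32.8% and 45.5% (0.13, SE 0.18). Neither of the 2 was called. In EEF1A1 the ranges of the conditions nearly coincided, and in EEF2 imatinib 1 lay below both DMSO libraries and imatinib 2 above them. These 2 genes also had many starts inside the gene, which was not particular to them. In EIF3A, whose TOP share was called higher, 30.5 to 31.9% of pairs began within 100 bp of an annotated start. Whether such starts bear on the calls was not tested. Only 61.4% and 51.2% of EEF1A1 pairs in DMSO and 44.7% and 55.5% after imatinib began within 100 bp of an annotated start, and a second start cluster in coding exon 4 held 8.70% and 10.8% and then 11.5% and 8.55% of its clustered pairs. Without imatinib 1 the model called EEF2, and without imatinib 2 it called EEF1A1.

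Several members outside the classical TOP list also had a larger share of such starts after imatinib. EIF6 had the largest log2 odds ratio of the 22, from 4.20% and 4.55% to 13.7% and 12.0% (1.71, SE 0.20, adjusted p = 1.14e-14). It met the limit for modelling only through the imatinib libraries, so this rank and call depend on that choice. Its TOP pairs, not scaled to depth, were 70 of 1665 and 142 of 3118 in DMSO. After imatinib they were 226 of 1644 and 59 of 490. The share thus rose while the gene's total was lower, and the amount of TOP molecules was not tested. EIF2S2 went from 5.92% and 6.25% to 11.2% and 13.9%, and EIF4H from 5.54% and 7.37% to 12.8% and 10.7%. EIF4A2 had the highest share in DMSO, 60.4% and 58.2%, and reached 71.6% and 65.1%, nearly all of it from the single C start printed above. EIF4B, on the TOP list, went from 52.6% and 55.2% to 64.8% and 64.6%, and its most used C start alone from 40.2% and 45.2% to 55.3% and 50.4%. That start has exactly 4 pyrimidines after the C, and with at least 5 required the share of EIF4B was 12.0% and 9.88% in DMSO and 9.34% and 13.8% after imatinib, which overlapped. EIF4A1, the paralog of EIF4A2, had TOP shares of 0.08 to 0.16% in the 4 libraries, and so the paralogous helicases differed in the kind of start they use in both conditions. Its most used start is a C followed by 1 pyrimidine, which took 30.5% and 29.2% in DMSO and 38.3% and 37.7% after imatinib. In EIF1 the C start printed above took 28.8% and 27.3% and then 32.0% and 37.4%. The C starts of these 2 genes thus also held a larger share in the imatinib libraries, without a TOP sequence. These are shares of a gene's pairs, and the total of EIF4A1 was lower in both imatinib libraries. With 1 library left out, the model called 13 members without DMSO 1, 12 without DMSO 2, 16 without imatinib 1 and 18 without imatinib 2.

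**Figure D3:**
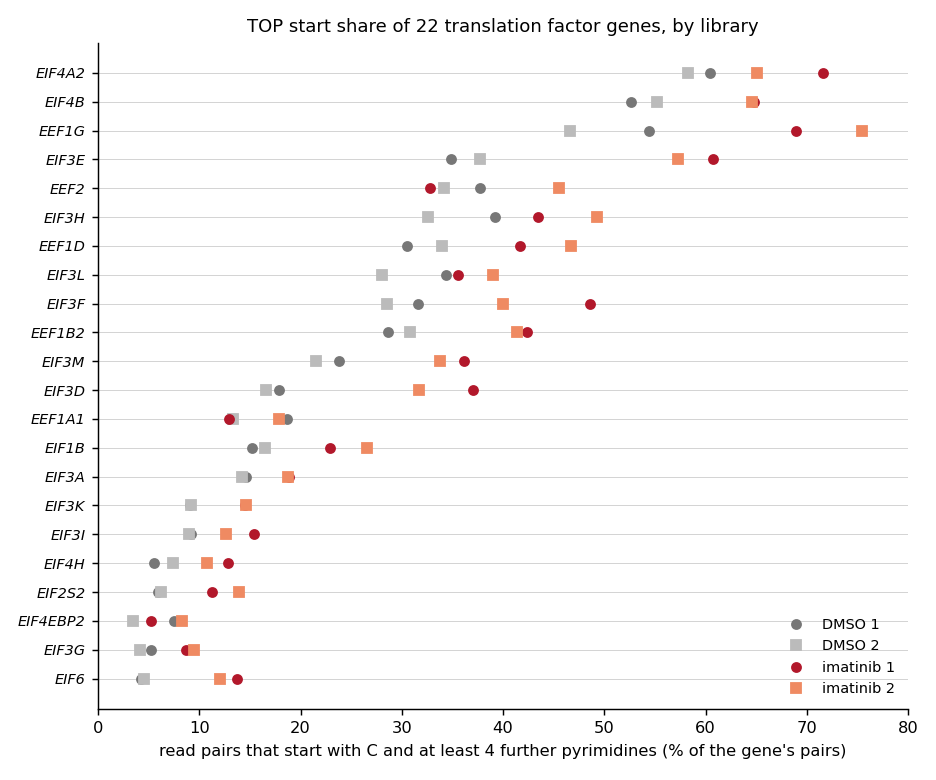
Percent of each gene's read pairs that start with C followed by at least 4 pyrimidines (x axis) in the 22 members that could be modelled (y axis), 1 point per library, grey for DMSO and red or orange for imatinib. In 19 genes both imatinib points lie to the right of both DMSO points, while EEF1A1, EEF2 and EIF4EBP2 overlap.

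Because each pair carries both ends, the PAS of TOP and other molecules of a gene can be compared. Of 17 members with at least 50 TOP pairs in every library, EEF1G, EIF3D and EIF6 had a single PAS cluster and allow no comparison. In 8 of the other 14 the share of the most used PAS was lower for TOP molecules in all 4 libraries. It was higher in 2, EIF3K and EIF3M, by 0.10 to 0.25 and 0.05 to 1.6 percentage points. How often such differences occur over all genes was not counted. The gap was widest in EIF3A, EIF4B and EEF1A1. In EIF4B the distal PAS took 66.7%, 58.8%, 57.6% and 73.5% of TOP molecules in DMSO 1, DMSO 2, imatinib 1 and imatinib 2, against 84.9%, 79.2%, 75.3% and 90.8% of other molecules. In EEF1A1 the main PAS took 85.7 to 89.2% of TOP molecules and 97.7 to 98.7% of the others. A pair that starts inside a gene is counted among the others, and its part in these gaps was not tested. In EIF3A only 30.5 to 31.9% of pairs began within 100 bp of an annotated start.

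Poly(A) site choice was compared last. The members had 66 sites with at least 5% of the gene's clustered pairs, and 50 lay within 200 bp of an annotated transcript end. Of the 38 genes, 22 used 1 site and 16 had several. The signal AATAAA was found in the last 30 bases before the end, on the transcribed strand, at 35 of the 66 sites (53.0%, against 58.0% of the 15891 sites of all genes), ATTAAA without it at 13 (19.7% against 16.7%), and neither at 18 (27.3% against 25.2%).

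In the 16 genes tested, 0 were called between imatinib and DMSO in edgeR and 0 had an unadjusted p under 0.05, and limma's test on voom values also called 0. Calls were rare in general, at 0.214% of 4206 genes. The lowest adjusted p was 0.668, for EIF2S2, whose proximal site held 11.9% and 11.2% of pairs in DMSO and 8.28% and 6.96% after imatinib.

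Tandem sites of a cap-binding protein, 2 helicases and a start codon factor are shown with the signal in capitals, since their shares show how far libraries of a condition differed.
EIF1, proximal PAS at chr17:41690998, 3′ UTR, plus strand: actccttcatgcAATAAActgaaaagagcc
EIF1, distal PAS at chr17:41691641, 3′ UTR, plus strand: aacccttatttaAATAAAacttgttttcag
EIF4A1, proximal PAS at chr17:7578628, 3′ UTR, plus strand: ttgAATAAAtgtcactttttgaggcaaaag
EIF4A1, distal PAS at chr17:7579006, 3′ UTR, plus strand: aattctgAATAAAatgacttggaaactgcc
EIF4A2, proximal PAS at chr3:186789765, 3′ UTR, plus strand: atttattcAATAAAgtatttaattagtgct
EIF4A2, distal PAS at chr3:186789894, 3′ UTR, plus strand: tgaatgttaAATAAAttgtatattcacttt
EIF4E, most proximal PAS at chr4:98880377, 3′ UTR, minus strand: acaaaggtggAATAAAcattaattttgtgc
EIF4E, most distal PAS at chr4:98879277, 3′ UTR, minus strand: cctgtatgaAATAAAcatgaaattaatagc
The proximal site of EIF1 held 81.4% and 72.4% of clustered pairs in DMSO and 73.6% and 82.0% after imatinib, so DMSO 1 lay beside imatinib 2 and DMSO 2 beside imatinib 1. That of EIF4A1 held 58.6% and 65.1% and then 64.8% and 56.0%, but many ends of this site were left out because A bases follow them. With those ends kept, the site held 71.2% and 71.4% of all the gene's pairs in DMSO and 72.7% and 70.6% after imatinib, and the distal site 23.5% and 22.7% and then 22.1% and 24.0%, so the libraries were then close to each other. The proximal site of EIF4A2 held 39.5% and 39.7% and then 37.0% and 28.2%, and the distal site 47.6% and 48.5% and then 48.7% and 62.8%. Here imatinib 2 stood apart while imatinib 1 lay near the DMSO libraries. EIF4E used 4 sites over 1100 bp, each with 15.2 to 38.7% of its pairs in any library.

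**Figure D4:**
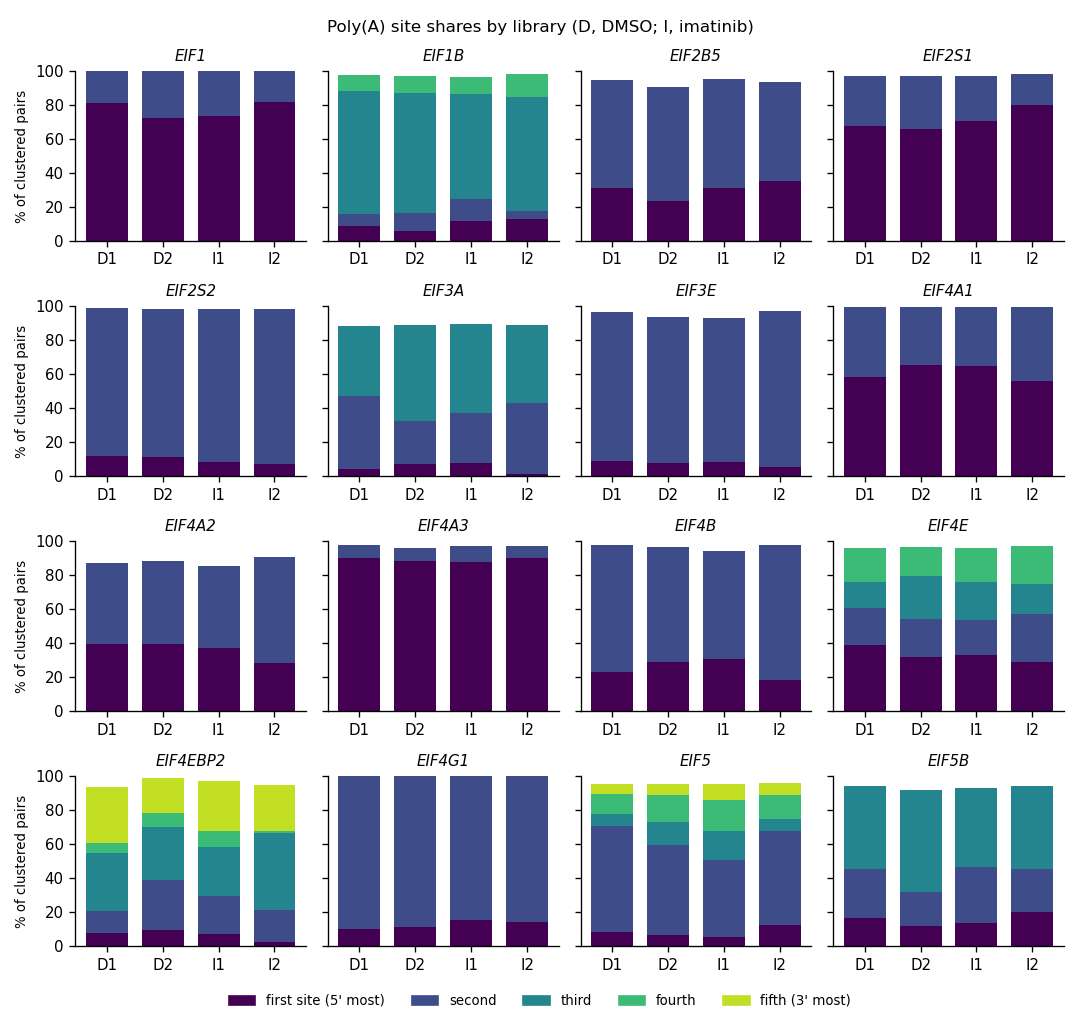
Share of clustered read pairs (y axis, percent) at each PAS of the 16 members with several sites, stacked from the most 5′ to the most 3′ site, in each library (x axis; D, DMSO; I, imatinib). The stacks of EIF1 are alike in D1 and I2 and in D2 and I1, those of EIF4A1 leave out many A-followed ends of its proximal site, and stacks below 100% leave out sites under 5%.

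Some ends lay inside genes. EIF2B5 had a PAS in intron 2 that carried AATAAA and held 31.4% and 23.2% of pairs in DMSO and 31.0% and 35.5% after imatinib, and EIF3E had one in intron 5 with 8.64% and 7.68% and then 8.35% and 4.95%. EIF5, the GTPase activator of eIF2, used 5 sites and EIF4EBP2 also 5, all in the last exon.

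For EIF5B and EIF3M most ends were followed by 7 or more A in the next 10 bases of the genome, the mark by which the methods of the study recognise priming of oligo(dT) inside an RNA. Such pairs were kept in the gene totals and left out of the PAS comparison. They made up 87.8%, 90.3%, 91.4% and 88.3% of EIF5B pairs in DMSO 1, DMSO 2, imatinib 1 and imatinib 2, and 86.1 to 89.5% of EIF3M pairs, against 7.82 to 9.80% of all pairs in the libraries. The most used such end of each gene is shown with the 10 genomic bases after it in capitals.
EIF5B, end at chr2:99363679, coding part of exon 5, plus strand: acaaaaagaagaaagataagAAGAAAAAGA
EIF3M, end at chr11:32602466, 3′ UTR, plus strand: atagtaaaacattataaactAAAAAAATTT
EIF4A1, end at chr17:7578623, 3′ UTR, plus strand: taaatgtcactttttgaggcAAAAGAAGGA
The EIF5B end and its neighbours within 20 bp held 40.2% of the gene's pairs, all of them in or beside this coding exon. Without the A-followed ends its log2 fold change was -0.47 (adjusted p = 0.287) rather than -0.34. The EIF3M end held 77.7% of that gene's pairs. In EIF4A1 such ends made up 33.5 to 45.0% of pairs and the most used one lay 5 bp from the proximal PAS with its AATAAA, so pairs at that site were left out of the PAS comparison.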

How the data were processed

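TIF-Seq2 tables of 4 K562 libraries were used, 2 per condition. The labels also list 3′ T-fill samples and PacBio transcript models, which were not used here. Per the labels and the methods, the authors trimmed reads with cutadapt 1.16, aligned both ends to hg38 with STAR 2.5.3a, kept uniquely mapped pairs, removed duplicates by an 8-base molecular identifier and deposited raw counts of pairs per combination of end positions. The number of identifiers possible at one position pair is limited. Whether this capped the counts of the most abundant molecules was not tested. Depth was 3695520, 5135829, 4263670 and 2263121 pairs in DMSO 1, DMSO 2, imatinib 1 and imatinib 2.

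A pair was counted for every Gencode v44 gene it fitted. Genes were tested with edgeR 4.0.16 (R 4.3.3; TMM, filterByExpr, robust quasi-likelihood fit) and Benjamini-Hochberg adjustment over all genes, called at an adjusted p under 0.05. CPM values were scaled by TMM. Positions were normalized by a power law (exponent 1.25, fitted from 10 to 1000 tags), kept with at least 1 normalized tag in at least 2 libraries and joined within 10 bp. Ends followed by 7 or more A in 10 bases were left out of PAS. Sites with at least 5% of the gene's pairs and 20 pairs were tested with diffSpliceDGE. TOP shares were modelled in edgeR as methylation-type shares. DESeq2 1.42.0 and limma 3.58.1 served as alternatives, with other filters, joining distances, share limits and definitions, and each library left out. Each test was checked on simulated counts.

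The replicates of a condition differed by more than sampling noise (chi-square per degree of freedom 10.2 in DMSO and 16.8 in imatinib). The deviations of libraries with the same number correlated at -0.24. This gave no sign that the numbers pair the libraries, but with 2 libraries per condition it cannot show that they do not. The members and lists were chosen with earlier results of these data known. All 38 members were to be named, with full statistics for those called and for the 5 with the most pairs, and the other pathway genes that were called. Sequences are from hg38. The 30-base sequences of members on chromosome 8 are not printed.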

Additional observations from a re-analysis of the deposited data

How the results depend on the processing

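With 2 libraries per condition the counts of calls moved with the choice of test and library. At the gene level 1800 genes and 2 members were called. The counts were 2736 genes and 8 members with no filter on low counts, 1180 genes and 1 member with a log2 fold change beyond 1.5, 4 members with DESeq2 and 1 with a slack of 0 bp. Leaving out 1 library gave 820 to 3955 genes and 0 to 8 members. EIF4G2 was called in 12 of 13 alternatives and EIF3B in 8. EIF1, near 0 throughout, changed sign to 0.013 without A-followed ends and 0.022 with a slack of 0 bp, and ran from -0.19 to 0.11 with 1 library left out. Pairs that fit a single gene gave no value for EIF4A1 and EEF1G. For PAS usage 9 genes and 0 members were called, against 2 genes with limma on voom values, 21 at a share of 1%, 5 at 10%, 4 with all read pairs and 0 to 90 with 1 library left out, and members stayed at 0. For start site usage 171 genes and 2 members were called, against 1 member with joining at 25 bp, 349 genes and 4 members at a share of 1%, 88 genes and 1 member at 10%, and 2 to 201 genes and 0 to 3 members with 1 library left out. For the TOP share model 667 genes and 18 members were called, against 422 to 656 genes and 12 to 18 members with 1 library left out and 14 genes and 0 members when TOP and other pairs were tested as 2 features. Without A-followed ends the 2 members called at the gene level were EIF4G2 and EIF4A2. The cause of these differences was not tested.

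The replicate block gave 1148 genes and 1 member at the gene level (EIF3B at an adjusted p of 0.111), 23 genes and 0 members for start sites (EIF3K 0.0614, EIF3G 0.154), 1 gene for PAS and 16 members for the TOP share. Among the pathway genes, the block gave adjusted p values of 0.138 for EIF2AK1, 0.128 for EIF2B3, 0.0838 for ABCE1, 0.0996 for GSPT1 and 0.0593 for TSFM, none of which passed, and PDCD4, DOHH and EEF2KMT passed. Crossed pairing, chosen after seeing the data since same-numbered libraries deviated in opposite directions, gave 3723 genes and 13 members at the gene level, 72 genes for PAS and 3 members for start sites.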
